A study of Mus musculus with 12 samples.

Results

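Gene expression was compared between aortic valves of Notch1+/-;Gata5-/- mice, which by their label carry 1 disrupted copy of Notch1 and no intact copy of Gata5, and valves of wildtype mice. Each group holds 4 of the 12 libraries of the study, so 8 libraries enter the comparison, and every library is a pool of 3 valves taken at postnatal day 10. The remaining 4 libraries, from Notch1+/-;Gata5+/- mice, are not compared here. They entered the filter, the scaling, the spread per gene, the mean abundance and the correlations between libraries. The Notch1+/-;Gata5-/- libraries are called Gata5-null below, although both genes differ from wildtype. Effects of the Notch1 and of the Gata5 genotype cannot be told apart in this comparison. Sources used here do not give the sex and strain of the mice or how the alleles were built. The comparison asks which genes and pathways across the transcriptome differ in the compound mutant valve. Members were found by the genotype label of each library, and all 20620 deposited genes were considered, of which 19346 could be tested.

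The aortic valve has thin cusps in which interstitial cells, a fibroblast-like population, maintain layers rich in collagen, proteoglycan and elastin beneath a sheet of endothelium. Smooth muscle cells of the aortic root and heart muscle lie beside the cusps and can enter a dissection. Notch1 is a receptor of contact signalling between neighbouring cells, and Gata5 is a zinc finger transcription factor of the endocardium. Disruption of either gene is associated with malformed aortic valves, among them valves with fused cusps.

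Total counts were 19206388 to 21450396 per wildtype library and 13866604 to 25059653 per Gata5-null library. Gata5-null replicate 3 had the lowest total, 6000 genes at 0 and a mean Spearman correlation of 0.892 with the other libraries across genes. Wildtype replicate 2 followed, with 3208 genes at 0 and a correlation of 0.925. A gene at 0 could still hold up to 3 counts, which corresponds to a floor of 0.120 to 0.216 CPM across these 8 libraries. The valve interstitial and fibroblast list of 21 markers was detected in full, with a summed level of 20884 to 25336 CPM in wildtype and 22715 to 25571 CPM in the Gata5-null libraries. Heart muscle RNA was present in every pool, since the 20 ventricular and general cardiomyocyte markers summed to 25666 to 56007 CPM in wildtype and 42307 to 60596 CPM in the Gata5-null libraries, lowest in wildtype replicate 2. Below, levels are given in CPM, the depth-normalised count after TMM scaling of the libraries, and are listed in the order of replicates 1 to 4.

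Gata5 (ENSMUSG00000015627) had 56, 18, 46 and 19 counts in the wildtype libraries and 0 in each Gata5-null library, over 74376369 counts in all. Against a floor of 3 counts over the group, its level in the mutant group was at least 44.6-fold lower (exact permutation p = 0.0286, two-sided, the smallest that 4 against 4 libraries can give). DESeq2 called this low-count gene (adjusted p = 1.2e-04), whereas edgeR gave an adjusted p of 0.204. Notch1 (ENSMUSG00000026923) was at 116, 159, 98.6 and 139 CPM in wildtype and 213, 207, 152 and 168 CPM in the Gata5-null libraries. These ranges overlapped (log2 fold change 0.53, SE 0.15, adjusted p = 0.582, exact permutation p = 0.0571). Since the disrupted part of Notch1 is not stated, its counts do not check that genotype.

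Across the transcriptome, 5 genes had an adjusted p under 0.05 in edgeR's quasi-likelihood test, which is 0.0258% of the 19346 genes tested. All 5 were lower in the Gata5-null valves and 0 were higher, while DESeq2 called 49 of 20458 (0.24%), 11 higher and 38 lower. Log2 fold changes of the DESeq2 calls ran from -24.4 to 21.5, and some of these genes were near 0 counts in 1 group. Usp50 had 33, 142, 24 and 0 counts in wildtype and 1, 0, 0 and 0 in the Gata5-null libraries. Car15 had 0, 0, 0 and 1 in wildtype and 91, 17, 0 and 60 in the Gata5-null libraries. Of the 5 edgeR calls, Synpo2, Mylk, Myh11 and Cnn1 encode parts of the contractile apparatus of smooth muscle, and Itih4 encodes a secreted plasma protein of the inter-alpha-trypsin family. At an unadjusted p under 0.05 there were 1044 genes (5.4%), 394 higher (2.04%) and 650 lower (3.36%). The 4 Gata5-null values lay entirely below the 4 wildtype values for 385 genes (1.99%) and entirely above them for 181 (0.936%), together 2.93%. The median log2 fold change of all genes tested was -0.03, and 46.1% were positive. In bulk tissue, fewer cells of a type and less RNA per cell cannot be told apart, and this holds for each gene below.

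**Figure D1:**
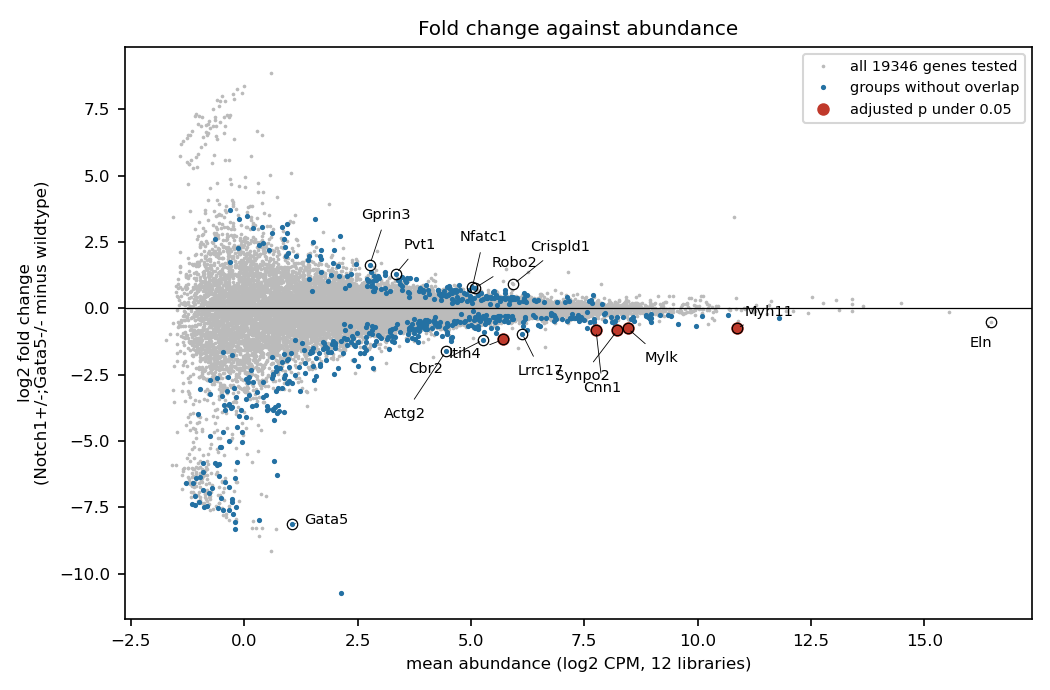
Log2 fold change (Gata5-null minus wildtype) of each of the 19346 genes tested against its mean abundance in log2 CPM over 12 libraries, with genes whose groups do not overlap in blue and the 5 called genes in red. The called genes lie below 0 at moderate to high abundance, and fold changes spread widely among genes of low abundance.

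The spread of the fold changes in that plot follows abundance. The median standard error of the log2 fold change was 1.89 for the 4440 genes with a mean log2 CPM under 1, and 0.13 for the 1246 genes at 7 or over. Among the latter, 88 genes were lower and 25 higher at an unadjusted p under 0.05, and 40.6% had a positive fold change. Between 3 and 5 the counts were even, with 145 lower and 149 higher of 5340 genes. Differences in genes of low abundance were therefore detectable only where they were large.

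Itih4 (ENSMUSG00000021922) was at 64.2, 74.1, 78.1 and 93.2 CPM in wildtype and 26.5, 33.1, 36.97 and 40.97 CPM in the Gata5-null libraries. The highest Gata5-null library was below the lowest wildtype library, and the mean of Itih4 fell from 77.4 CPM ± 12.1 to 34.4 CPM ± 6.18 (n = 4 per group, ± SD), which is 2.25-fold lower (log2 fold change -1.17, SE 0.17, adjusted p = 0.00824). It was the called gene with the smallest p. Of the inter-alpha-trypsin and acute phase plasma protein genes 11 of 20 listed, Itih4 included, were tested, with a median log2 fold change of -0.04. Itih5, a family member chosen here after its values were seen, had a log2 fold change of 0.16 (SE 0.14).

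Synpo2 (ENSMUSG00000050315), which bundles actin filaments in muscle, was at 364, 410.0, 345 and 399.7 CPM in wildtype and 204, 208, 179 and 265 CPM in the Gata5-null libraries (log2 fold change -0.83, SE 0.13, adjusted p = 0.00824). Mylk (ENSMUSG00000022836), the kinase that starts contraction by phosphorylating myosin light chain, was at 426, 489, 383 and 471 CPM in wildtype and 278, 271, 221 and 283 CPM in the Gata5-null libraries (log2 fold change -0.75, SE 0.12, adjusted p = 0.00861). Both fell in every Gata5-null library below every wildtype library. Myh11 (ENSMUSG00000018830), the heavy chain of smooth muscle myosin, was at 2226, 2619, 1901 and 2683 CPM in wildtype and 1169, 1426, 1328 and 1666 CPM in the Gata5-null libraries (log2 fold change -0.75, SE 0.12, adjusted p = 0.0136). Calponin, encoded by Cnn1 (ENSMUSG00000001349) and bound to actin, was at 239, 332, 229 and 304 CPM in wildtype and 119, 153, 173 and 184 CPM in the Gata5-null libraries (log2 fold change -0.81, SE 0.15, adjusted p = 0.0365). For all 5 called genes Gata5-null replicate 4 was the mutant library closest to the wildtype mean. With only the 8 compared libraries in the fit, 0 genes were called in edgeR (504 at an unadjusted p under 0.05). Without wildtype replicate 2 and Gata5-null replicate 3 together there were 2 calls, of which only Itih4 was among the 5. Synpo2, Mylk, Myh11 and Cnn1 all missed the threshold in that fit. Without wildtype replicate 2 and without Gata5-null replicate 1 the count of calls was 2 and 3, and without Gata5-null replicate 4 it was 21, of which 19 were lower. Cnn1 missed the threshold without wildtype replicate 2 or 4 or Gata5-null replicate 1 or 2, Myh11 without wildtype replicate 2 or Gata5-null replicate 1 or 2, and Mylk without wildtype replicate 2. The log2 fold changes over these 8 fits stayed between -0.90 to -0.68 for Cnn1, -0.85 to -0.66 for Myh11 and -0.81 to -0.66 for Mylk.

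The sequence upstream of the start site is shown for Itih4 and Synpo2, 2 called genes that were lower in the Gata5-null group. Itih4 is the called gene outside the smooth muscle list, and Synpo2 is the smooth muscle gene with the smallest p. Both windows are the 250 bases before the start site in RefSeq on GRCm38.p6, an older build than the GRCm39 of the counts, written 5′ to 3′ on the strand of the gene. The Itih4 window is chr14:30886226-30886475 on the plus strand and the Synpo2 window is chr3:123236150-123236399 on the minus strand. Capitals mark a GATAA motif read on the opposite strand.
Itih4: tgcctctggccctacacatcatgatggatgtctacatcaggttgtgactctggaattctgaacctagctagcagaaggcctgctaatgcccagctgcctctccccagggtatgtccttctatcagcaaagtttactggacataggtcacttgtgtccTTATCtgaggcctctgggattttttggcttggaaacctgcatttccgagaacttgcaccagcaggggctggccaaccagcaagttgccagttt
Synpo2: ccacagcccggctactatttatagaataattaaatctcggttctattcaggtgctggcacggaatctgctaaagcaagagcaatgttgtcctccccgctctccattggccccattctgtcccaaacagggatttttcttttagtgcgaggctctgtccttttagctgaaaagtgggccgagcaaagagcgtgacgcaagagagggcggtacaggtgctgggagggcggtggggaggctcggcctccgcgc
An entry was found for 4 of the 5 called genes, all but Myh11. Motifs were searched on both strands: GATAA, a core bound by GATA factors; the CArG box, bound by serum response factor at smooth muscle genes; and GTGGGAA, bound by the Notch partner Rbpj. The only match in the 4 windows was the GATAA of Itih4, from -93 to -89 relative to the start. Of 32851 promoter windows of the same length, 22.6% held GATAA, 1.47% the CArG box and 5.42% GTGGGAA. A match describes letters in a window and not a bound site.

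The next lower genes, which missed the threshold, included genes outside the smooth muscle list. Which cells their RNA came from was not tested. The 12 with the smallest p among genes that averaged 1 or more in log2 CPM and did not overlap included secreted and matrix proteins, a transcription factor and an enzyme of resident macrophages. Lrrc17, a secreted leucine-rich repeat protein known for restraining osteoclast formation, was at 84.7, 93.96, 83.3 and 92.6 CPM in wildtype and 37.98, 48.4, 32.5 and 64.8 CPM in the Gata5-null libraries (log2 fold change -0.95, SE 0.18, adjusted p = 0.0551). Cbr2, a carbonyl reductase found in resident macrophages, was at 52.6, 73.4, 47.1 and 41.3 CPM in wildtype and 21.3, 18.6, 20.7 and 33.5 CPM in the Gata5-null libraries (log2 fold change -1.19, SE 0.22, adjusted p = 0.0551). For these 2 genes every wildtype library was above every Gata5-null library, and the adjusted p lay just above the threshold. Col4a6, a basement membrane collagen chain, was at 205, 272, 231 and 216 CPM in wildtype and 166, 136, 99.5 and 152 CPM in the Gata5-null libraries (log2 fold change -0.74, SE 0.15, adjusted p = 0.139). Osr1, a zinc finger transcription factor of embryonic connective tissue, was at 50.4, 83.7, 50.8 and 82.3 CPM in wildtype and 37.4, 23.8, 36.8 and 41.9 CPM in the Gata5-null libraries (log2 fold change -0.93, SE 0.21, adjusted p = 0.262). Its wildtype libraries fell into a lower and a higher pair, both above the mutant range. Cpe, which trims peptide hormone precursors, was at 565, 628, 546 and 669 CPM in wildtype and 428, 369, 379 and 508 CPM in the Gata5-null libraries (log2 fold change -0.52, SE 0.12, adjusted p = 0.341). Rarres2, the secreted attractant chemerin, was at 127, 121, 96.6 and 104 CPM in wildtype and 64.02, 60.2, 69.1 and 91.9 CPM in the Gata5-null libraries (log2 fold change -0.65, SE 0.16, adjusted p = 0.375). Cpe and Rarres2 both had Gata5-null replicate 4 as the highest mutant library. Hmcn2, an extracellular hemicentin, was at 43.7, 27.1, 37.3 and 18.9 CPM in wildtype and 13.2, 13.02, 9.16 and 18.8 CPM in the Gata5-null libraries, and its closest libraries of the 2 groups differed by little (log2 fold change -1.23, SE 0.30, adjusted p = 0.375). Fblim1, a filamin-binding adaptor at cell-matrix adhesions, was at 302, 330.4, 298 and 329 CPM in wildtype and 209, 205, 213 and 264 CPM in the Gata5-null libraries (log2 fold change -0.50, SE 0.12, adjusted p = 0.341). The remaining 4 were Gata5 and the smooth muscle list members Tagln, Itga8 and Actg2. Gata5-null replicate 4 was the mutant library nearest to wildtype for 10 of these 12 genes. Without that library, Lrrc17, Cbr2, Cpe, Rarres2, Fblim1, Tagln, Itga8 and Actg2 passed the threshold.

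In the other direction no gene reached the threshold, and the smallest adjusted p among the 12 higher genes chosen in the same way was 0.463. Robo2, a receptor for the guidance ligand Slit, was at 25.5, 21.7, 27.8 and 29.7 CPM in wildtype and 53.4, 41.9, 47.8 and 35.1 CPM in the Gata5-null libraries (log2 fold change 0.77, SE 0.20, adjusted p = 0.463). Pvt1, a long non-coding RNA, was at 4.42, 4.51, 7.03 and 6.61 CPM in wildtype and 15.97, 12.7, 16.5 and 10.7 CPM in the Gata5-null libraries (log2 fold change 1.31, SE 0.35, adjusted p = 0.506). Both were above the wildtype range in every Gata5-null library. Olfml3, a secreted olfactomedin-like protein, was at 33.2, 30.4, 33.6 and 38.3 CPM in wildtype and 55.2, 49.5, 53.6 and 50.2 CPM in the Gata5-null libraries (log2 fold change 0.62, SE 0.17, adjusted p = 0.525), with a narrow range in both groups. Frem2, a basement membrane protein of the Fraser complex, was at 64.7, 49.8, 52.4 and 71.8 CPM in wildtype and 102, 75.5, 89.4 and 86.3 CPM in the Gata5-null libraries (log2 fold change 0.56, SE 0.17, adjusted p = 0.662). For Olfml3 and Frem2 the lowest Gata5-null library was above the highest wildtype library. Col16a1, a collagen associated with fibrils, was at 152, 192, 130.5 and 202 CPM in wildtype and 276, 221, 258 and 206 CPM in the Gata5-null libraries (log2 fold change 0.51, SE 0.14, adjusted p = 0.574), and the lowest Gata5-null library was close to the highest wildtype one. Also among the 12 were Gprin3 (1.65), Zfp944 (1.37), Ppp1r26 (1.15), Zfp185 (1.09), Lrrc1 (0.81) and Tsnax (0.51), given with their log2 fold changes. Zfp944 belongs to a family of closely related zinc finger genes, so its counts are uncertain. Gata5-null replicate 4 was nearest to wildtype for 8 of the 12.

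**Figure D2:**
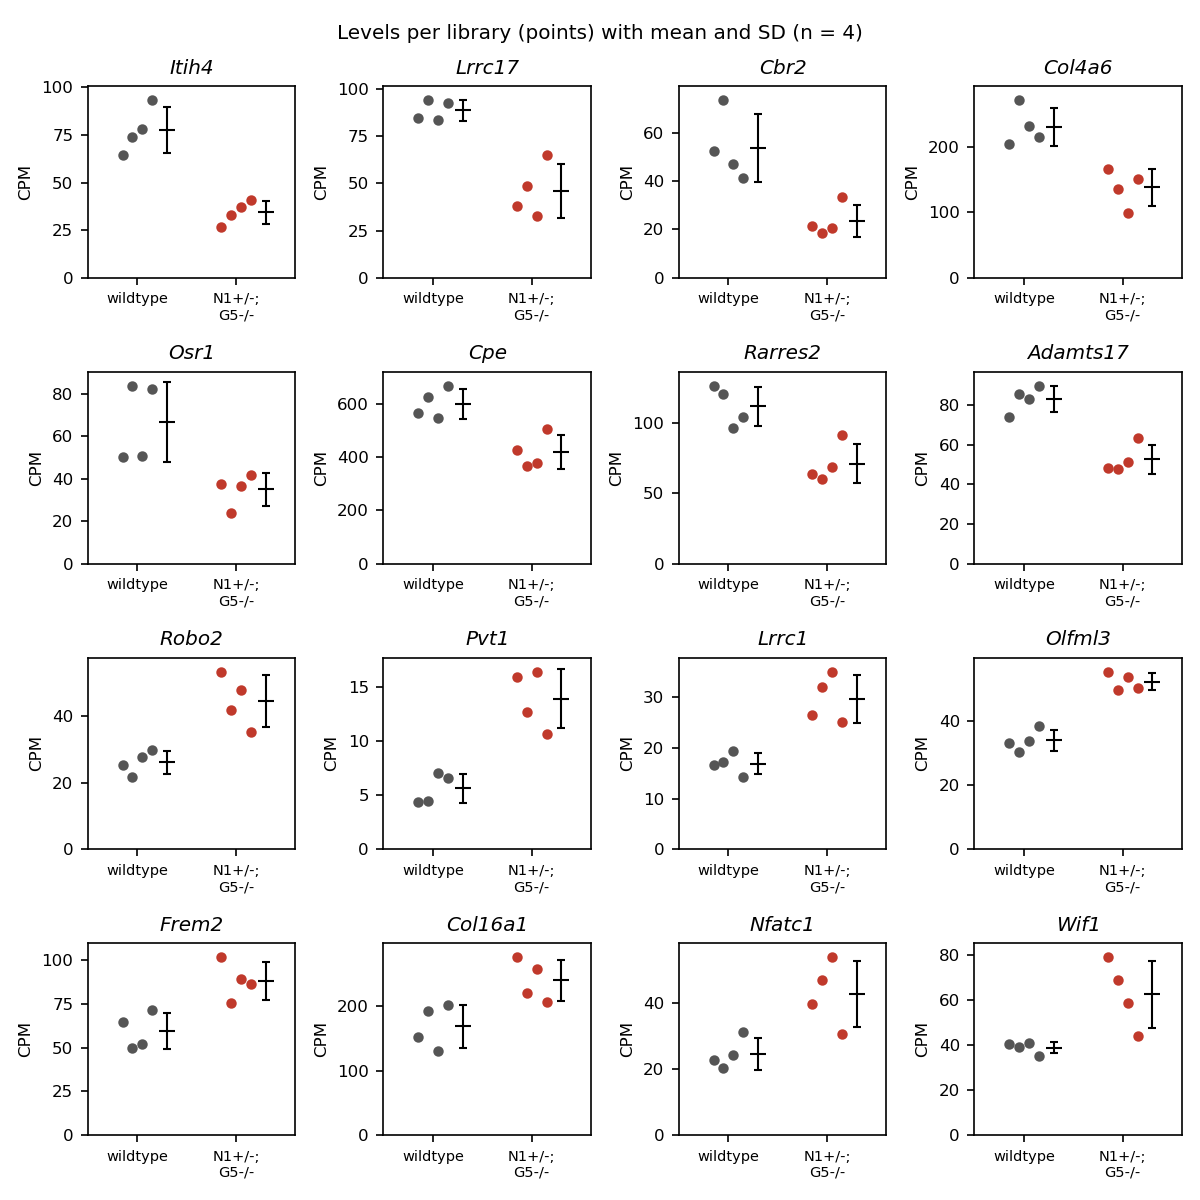
Level in CPM in each of the 4 wildtype (grey) and 4 Gata5-null (red) libraries, with mean and SD, for Itih4 and 7 further genes with lower values and for 8 genes with higher values in the Gata5-null group. Of these 16 genes only Itih4 passed the test, and only the values of Nfatc1 overlap between the groups.

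Gene lists were used to describe pathways and cell types. Over 66 lists, 1186 distinct genes were tested, and 5 were called, in 2 lists. Of the 1186, 72 were lower and 41 higher at an unadjusted p under 0.05, and 42 lay entirely below and 13 entirely above wildtype. The median log2 fold change was within 0.10 of 0 for 34 lists. A list score, the mean log2 CPM of the members in a library, overlapped between the groups for 65 of the 66 lists. Over all genes tested, the corresponding shares were 3.36% lower and 2.04% higher at that p, and 1.99% entirely below and 0.936% entirely above. A range in brackets after a list's median, or after a single gene's log2 fold change, runs over the 8 fits that each leave out 1 library, and the library behind an end of the range is named where that end differs by over 1.5 times from a value of at least 0.1 in size. Members of the lists below did not reach an adjusted p under 0.05 unless it is stated.

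**Figure D3:**
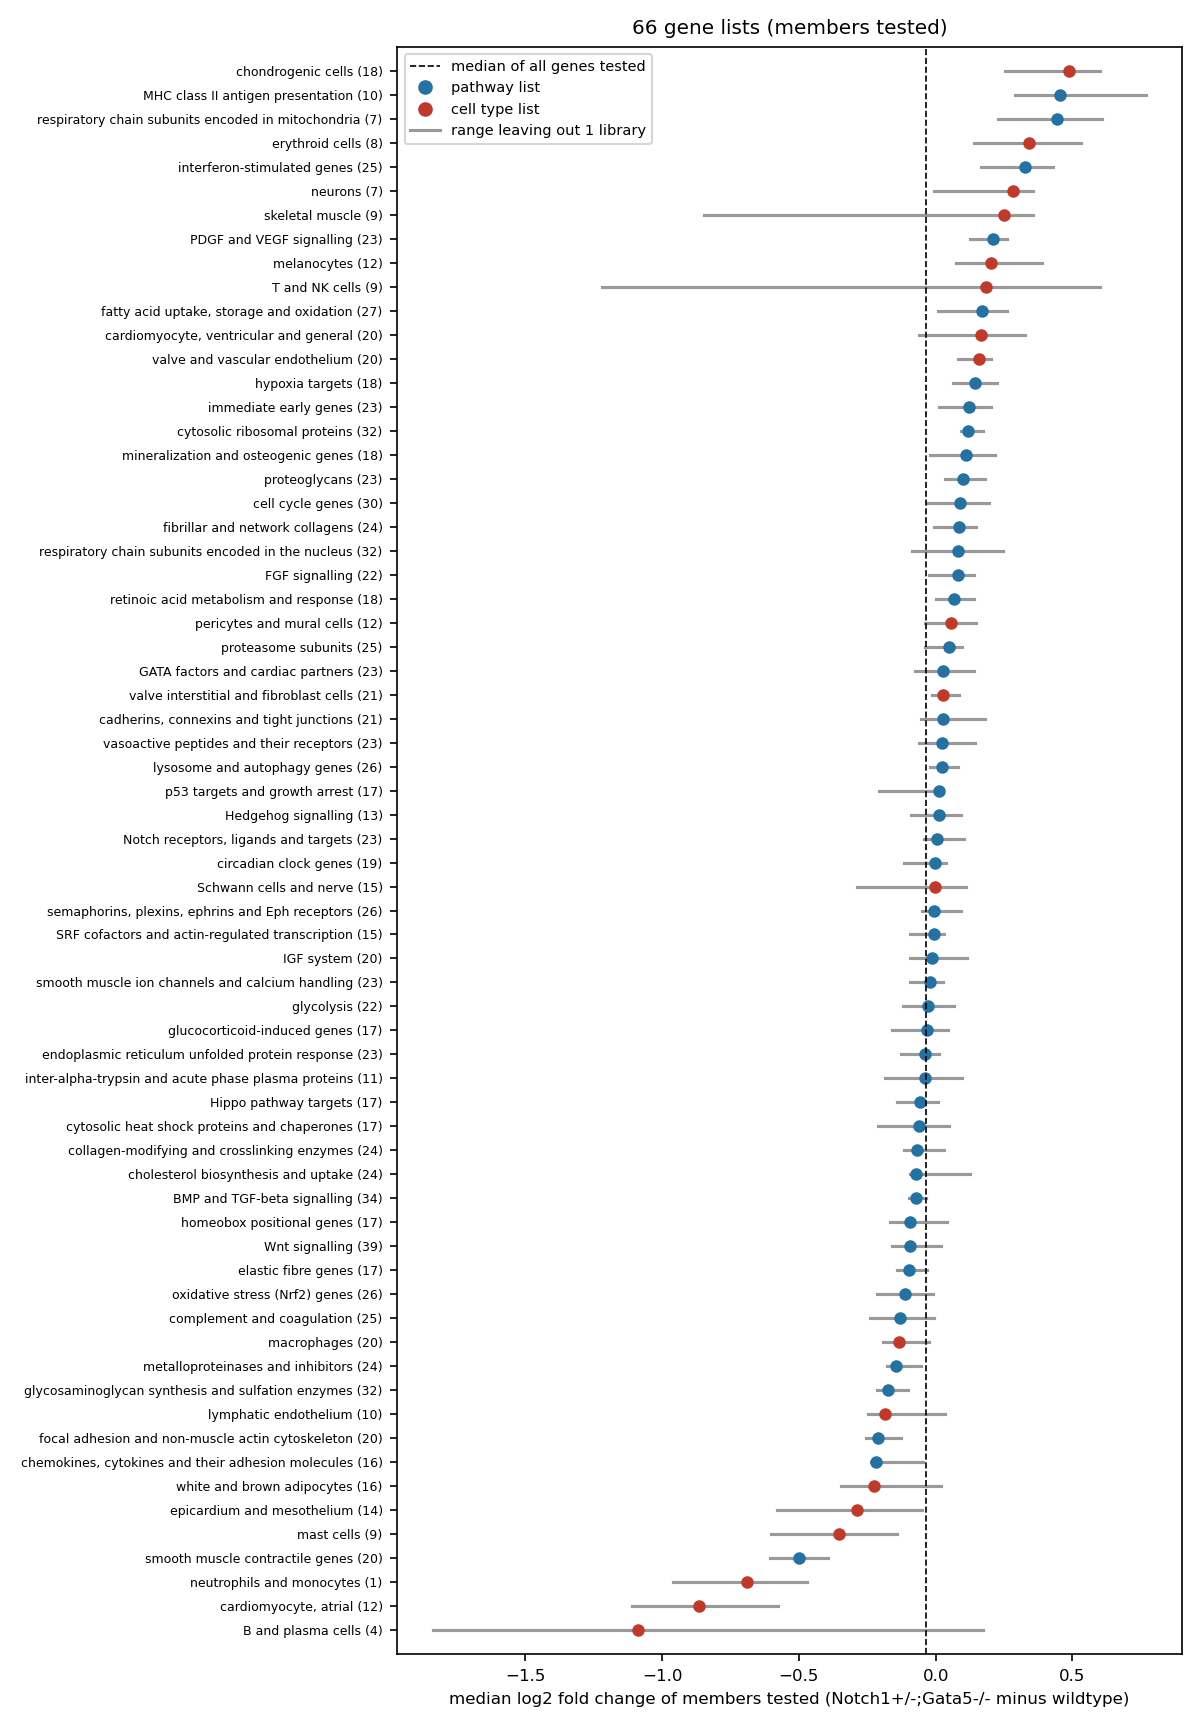
Median log2 fold change (Gata5-null minus wildtype) of the tested members of each of 66 gene lists, with the number of members in brackets, and its range over 8 fits that each leave out 1 library. The smooth muscle list at -0.50 and the atrial list at -0.86 lie to the left over their whole range, as do other lists. Lists with few members have wide ranges, such as B and plasma cells with the lowest median, -1.09 (-1.84 to 0.17).

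The smooth muscle contractile list held the 4 called contractile genes, and 18 of its 20 members had a negative fold change. The median was -0.50 (-0.61 to -0.40). The score was 8.02, 8.16, 8.05 and 8.29 in wildtype and 7.57, 7.57, 7.52 and 7.98 in the Gata5-null libraries. The groups did not overlap, and Gata5-null replicate 4 was close to the wildtype range. The 4 called genes are part of this score, and the list was written with earlier results of these data known. The separation of the score is therefore not a result apart from those calls. Actg2, the gamma actin of smooth muscle, was at 20.5, 38.3, 39.04 and 32.3 CPM in wildtype and 10.4, 8.03, 3.44 and 20.4 CPM in the Gata5-null libraries (log2 fold change -1.61, SE 0.37, adjusted p = 0.341). Tagln, an actin-binding protein, was at 1136, 1361, 1052 and 1277 CPM in wildtype and 744, 605, 805 and 926 CPM in the Gata5-null libraries (log2 fold change -0.65, SE 0.13, adjusted p = 0.0978). Itga8, an integrin chain of smooth muscle, was at 803, 1039.5, 777 and 1036 CPM in wildtype and 593, 485, 614 and 758 CPM in the Gata5-null libraries (log2 fold change -0.58, SE 0.14, adjusted p = 0.341). The pericyte and mural cell list had a median of 0.06 (-0.04 to 0.15), with 7 of 12 members positive. The genes that regulate transcription with serum response factor had a median of -0.01 (-0.09 to 0.03), and the channel and calcium-handling genes of smooth muscle one of -0.02 (-0.10 to 0.03).

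Genes that couple the actin cytoskeleton to the matrix lay to the same side with smaller differences. Of 20 focal adhesion and non-muscle actin genes, 19 had a negative fold change, with a median of -0.21 (-0.26 to -0.13, -0.13 without wildtype replicate 4) and 7 lower at an unadjusted p under 0.05 (all genes 3.36%). Vcl, vinculin of adhesion plaques, was at 435, 582, 455 and 556 CPM in wildtype and 343, 285, 279.6 and 437 CPM in the Gata5-null libraries (log2 fold change -0.59, SE 0.14, adjusted p = 0.341). Flna, the actin cross-linker filamin A, was at 3666, 4811, 3581 and 4156 CPM in wildtype and 3280.2, 2981, 3304 and 3149 CPM in the Gata5-null libraries (log2 fold change -0.35, SE 0.11, adjusted p = 0.738). Csrp1, a LIM domain protein, was at 279, 348, 260.2 and 362 CPM in wildtype and 244, 208, 230.2 and 261 CPM in the Gata5-null libraries (log2 fold change -0.41, SE 0.13, adjusted p = 0.738). Only Flna showed no overlap among these 3. Among 23 vasoactive peptide and receptor genes the median was 0.02 (-0.06 to 0.14), and both subunits of the nitric oxide receptor had negative values, Gucy1a1 at -0.47 and Gucy1b1 at -0.43.

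Collagen genes differed among themselves in direction. Of 24 tested, 13 had a positive fold change, and at an unadjusted p under 0.05 there were 6 higher and 4 lower, where all genes had 2.04% higher and 3.36% lower. Col4a6, given above, was the lowest p of the list. Its neighbour in basement membranes, Col4a5, which was chosen after its values were seen, had a log2 fold change of -0.41 (SE 0.12) with groups that did not overlap. Col8a1, a network collagen of vessels, was at 110.3, 78.8, 83.8 and 115 CPM in wildtype and 184, 148, 130.2 and 115 CPM in the Gata5-null libraries (log2 fold change 0.57, SE 0.16, adjusted p = 0.525). The cartilage collagens Col2a1 and Col11a1 are described with the chondrogenic list. Among collagen-modifying enzymes the median was -0.07 (-0.12 to 0.03). The lysyl oxidase Loxl1 was at 235, 283, 193 and 235 CPM in wildtype and 190.1, 190.3, 165 and 166 CPM in the Gata5-null libraries (log2 fold change -0.41, SE 0.13, adjusted p = 0.738), and the procollagen enhancer Pcolce2 had a log2 fold change of -0.69 (-0.87 to -0.45, -0.45 without Gata5-null replicate 3).

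Elastic fibre genes were also divided, with 8 of 17 positive and a median of -0.10 (-0.14 to -0.03). Eln, which encodes elastin, was at 91613, 122545, 85385 and 133277 CPM in wildtype and 59917, 74965, 85383 and 85692 CPM in the Gata5-null libraries (log2 fold change -0.50, SE 0.15, adjusted p = 0.738). The ranges met at wildtype replicate 3 and the Gata5-null replicates 3 and 4. Mfap4, a microfibril-associated protein, was at 309, 347, 269.7 and 352 CPM in wildtype and 210.0, 235, 219 and 305 CPM in the Gata5-null libraries (log2 fold change -0.40, SE 0.13, adjusted p = 0.828). Mfap2, another protein of microfibrils, which was chosen after its values were seen, had a log2 fold change of 0.70 (SE 0.23), and its groups did not overlap.

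Enzymes that cut or build the ground substance had mostly negative fold changes. Of 24 metalloproteinases and inhibitors 8 were positive, with a median of -0.14 (-0.18 to -0.05, -0.05 without wildtype replicate 2) and 6 lower and 0 higher at an unadjusted p under 0.05 (all genes 3.36% and 2.04%). Adamts17 was at 73.9, 85.7, 83.2 and 89.7 CPM in wildtype and 48.2, 47.98, 51.4 and 63.4 CPM in the Gata5-null libraries (log2 fold change -0.65, SE 0.16, adjusted p = 0.427). Mmp19 was at 6.50, 13.6, 6.46 and 11.52 CPM in wildtype and 4.36, 3.24, 1.45 and 5.66 CPM in the Gata5-null libraries (log2 fold change -1.36, SE 0.48, adjusted p = 0.839). Of the 24 members, 3 lay entirely below wildtype (all genes 1.99%). Adamts17 and Mmp19, named for their small p, were among them. Of 32 enzymes of glycosaminoglycan synthesis and sulfation 10 were positive, with a median of -0.17 (-0.22 to -0.10, -0.10 without Gata5-null replicate 3), and the sulfatase Sulf2 had the smallest p (log2 fold change -0.36, SE 0.13, adjusted p = 0.839). The proteoglycans themselves had 16 of 23 positive and a median of 0.10 (0.03 to 0.18), with the aggregating proteoglycan Acan at 0.44 (0.29 to 0.59) and the cell surface Gpc6 at -0.37 (-0.46 to -0.20, -0.20 without wildtype replicate 2).

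Chondrogenic genes, which the valve shares with cartilage, were highest in part of the Gata5-null pools. Of 18 members 15 were positive, with a median of 0.49 (0.25 to 0.60, 0.25 without Gata5-null replicate 1) and 5 higher at an unadjusted p under 0.05 (all genes 2.04%). Col2a1 was at 59.6, 119, 77.2 and 60.04 CPM in wildtype and 363, 222, 184 and 48.1 CPM in the Gata5-null libraries (log2 fold change 1.37, SE 0.51, adjusted p = 0.86). Col11a1 was at 89.5, 102, 78.9 and 79.7 CPM in wildtype and 189, 182, 120.1 and 73.7 CPM in the Gata5-null libraries (log2 fold change 0.69, SE 0.26, adjusted p = 0.84). Comp, a cartilage matrix protein, was at 37.8, 46.4, 45.4 and 26.8 CPM in wildtype and 124, 94.4, 59.2 and 28.4 CPM in the Gata5-null libraries (log2 fold change 0.97, SE 0.39, adjusted p = 0.866). For all 3, Gata5-null replicate 4 lay inside or below the wildtype range and the other 3 Gata5-null libraries lay above it. Mineralization and osteogenic genes had a median of 0.11 (-0.02 to 0.22, -0.02 without Gata5-null replicate 1 and 0.22 without wildtype replicate 2), with Lrrc17 as the member with the smallest p.

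Signalling pathways were described by their ligands, receptors and inhibitors. In the list of BMP and TGF-beta signalling 13 of 34 members were positive, with a median of -0.07 (-0.10 to -0.03), 3 lower and 0 higher at an unadjusted p under 0.05 (all genes 3.36% and 2.04%). The ligand Tgfb2 was at 90.6, 128, 87.2 and 131 CPM in wildtype and 80.6, 75.6, 46.5 and 80.5 CPM in the Gata5-null libraries (log2 fold change -0.63, SE 0.17, adjusted p = 0.563). The receptor Bmpr1b was at 11.1, 22.8, 16.9 and 11.4 CPM in wildtype and 5.85, 3.76, 5.71 and 10.8 CPM in the Gata5-null libraries (log2 fold change -1.25, SE 0.39, adjusted p = 0.738), and the receptor Tgfbr1 had a log2 fold change of -0.31. Of the 34 members, 4 lay entirely below wildtype (all genes 1.99%). These 3 genes, named for their small p, were among them. In the Wnt list 17 of 39 were positive. Wif1, a secreted Wnt inhibitor, was at 40.5, 39.001, 40.6 and 35.002 CPM in wildtype and 78.7, 68.8, 58.4 and 43.8 CPM in the Gata5-null libraries (log2 fold change 0.69, SE 0.23, adjusted p = 0.839), above wildtype in every library, while the secreted antagonist Frzb had a log2 fold change of -0.57 (-0.73 to -0.36, -0.36 without Gata5-null replicate 3).

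Of 23 Notch receptors, ligands and targets 12 were positive, with a median of 0.005 (-0.04 to 0.10). After Notch1 itself the smallest p was that of Lfng, a fringe enzyme that modifies Notch receptors, at 6.08, 7.23, 5.59 and 2.75 CPM in wildtype and 12.97, 4.01, 13.5 and 12.8 CPM in the Gata5-null libraries (log2 fold change 0.998, SE 0.44, adjusted p = 0.87). Of 23 GATA factors and cardiac partners 13 were positive. Nfatc1, a transcription factor of valve endocardium, was at 22.5, 20.1, 24.1 and 31.1 CPM in wildtype and 39.4, 46.9, 53.6 and 30.5 CPM in the Gata5-null libraries (log2 fold change 0.80, SE 0.22, adjusted p = 0.525). The 2 groups overlapped only through wildtype replicate 4 and Gata5-null replicate 4. Tbx20, a T-box factor of the heart, had a log2 fold change of 0.25. Vascular growth factor genes of the PDGF and VEGF list had 16 of 23 positive and a median of 0.21 (0.13 to 0.26, 0.13 without wildtype replicate 3), with the endothelial Esm1 at 1.51, 0, 1.14 and 1.90 CPM in wildtype and 6.37, 4.86, 7.71 and 2.07 CPM in the Gata5-null libraries and the ligand Pdgfd at a log2 fold change of -0.59. In the IGF list the binding proteins Igfbp7, Igfbp4 and Igfbp5 had log2 fold changes of -0.29, -0.32 and -0.43 (-0.63 to -0.26, -0.26 without Gata5-null replicate 3). The Hedgehog, FGF, retinoic acid and Hippo lists had medians of 0.01 (-0.09 to 0.09), 0.08 (-0.02 to 0.14), 0.07 (0.00022 to 0.14) and -0.06 (-0.14 to 0.01).

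Valve interstitial and fibroblast markers were balanced, with 12 of 21 positive and a median of 0.03 (-0.02 to 0.09). Of 20 markers of valve and vascular endothelium 15 were positive, with a median of 0.16 (0.08 to 0.20, 0.08 without Gata5-null replicate 4) and a summed level of 1173 to 1436 CPM in wildtype and 1218 to 1604 CPM in the Gata5-null libraries. Erg, an endothelial transcription factor, was at 58.4, 55.99, 57.5 and 65.4 CPM in wildtype and 62.1, 73.9, 80.5 and 90.99 CPM in the Gata5-null libraries (log2 fold change 0.37, SE 0.16, adjusted p = 0.86), and Klf2, a factor induced by flow, had a log2 fold change of 0.56 (0.15 to 0.89, 0.15 without Gata5-null replicate 3 and 0.89 without wildtype replicate 2). Endothelial scores overlapped between the groups. Melanocyte genes, of a pigment cell type found in heart valves, had 8 of 12 positive, with Pmel at 3.54, 9.90, 4.86 and 6.46 CPM in wildtype and 8.52, 19.4, 24.1 and 4.42 CPM in the Gata5-null libraries (log2 fold change 1.18, SE 0.47, adjusted p = 0.839).

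Macrophage markers had 8 of 20 positive and a summed level of 308 to 388 CPM in wildtype and 255 to 307 CPM in the Gata5-null libraries. The sums did not overlap, but Cbr2 is itself a member of the list and its own difference is part of them. They therefore do not describe macrophage content apart from Cbr2. The list score, which also includes Cbr2, overlapped. The part of macrophage content in the values of Cbr2 was not tested. Besides Cbr2, the scavenger receptor Cd163 was at 16.9, 14.5, 10.5 and 4.26 CPM in wildtype and 6.28, 2.91, 3.86 and 9.29 CPM in the Gata5-null libraries (log2 fold change -1.04, SE 0.46, adjusted p = 0.87), with overlapping groups. The lysosomal Cd68 had a log2 fold change of 1.53 with Gata5-null replicate 3 alone high at 23.7 CPM, and was -0.08 without that library. Antigen presentation genes of MHC class II had 9 of 10 positive and a median of 0.46 (0.29 to 0.77, 0.29 without wildtype replicate 3 and 0.77 without wildtype replicate 2), and H2-Aa was at 2.60, 6.66, 3.93 and 5.76 CPM in wildtype and 12.2, 5.76, 9.78 and 4.13 CPM in the Gata5-null libraries, with overlapping groups. Interferon-stimulated genes had 19 of 25 positive and a median of 0.33 (0.17 to 0.43, 0.17 without Gata5-null replicate 1). Their summed level was 258, 284, 232 and 275 CPM in wildtype and 489, 233, 277 and 262 CPM in the Gata5-null libraries, so that only Gata5-null replicate 1 was above the wildtype range. Complement and coagulation genes had a median of -0.13 (-0.24 to -0.01, -0.24 without Gata5-null replicate 4 and -0.01 without Gata5-null replicate 3), and chemokines and cytokines one of -0.22 (-0.24 to -0.05, -0.05 without wildtype replicate 1).

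Levels of heart muscle and mitochondrial genes varied widely within the groups. The 7 mitochondrially encoded respiratory chain genes that were tested all had positive fold changes, with a median of 0.45 (0.23 to 0.61, 0.23 without Gata5-null replicate 4). Their summed level was 11519.8, 7558, 15274 and 17456 CPM in wildtype and 13268, 17783, 13081 and 23585 CPM in the Gata5-null libraries, with the lowest value in wildtype replicate 2 and the highest in Gata5-null replicate 4. The ventricular and general cardiomyocyte sum, also lowest and highest in these 2 libraries, was 48445, 25666, 56007 and 50249.7 CPM in wildtype and 44360.5, 54463, 42307 and 60596 CPM in the Gata5-null libraries. Of the 20 genes in that list 18 had a positive fold change, with a median of 0.17 (-0.06 to 0.33, -0.06 without wildtype replicate 2 and 0.33 without wildtype replicate 3), so that its direction turned without 1 wildtype library. The part of heart muscle content in the mitochondrial values was not tested. Of 27 genes of fatty acid uptake, storage and oxidation 23 were positive, with a median of 0.17 (0.01 to 0.26, 0.01 without wildtype replicate 2 and 0.26 without wildtype replicate 4). The nuclear-encoded respiratory chain subunits had a median of 0.08 (-0.09 to 0.25), glycolysis one of -0.03 (-0.12 to 0.07) and cytosolic ribosomal proteins one of 0.12 (0.09 to 0.17), with 27 of 32 positive. Ribosomal protein genes have many processed copies in the genome, so their counts are uncertain.

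Atrial cardiomyocyte genes had 1 of 12 positive and a median of -0.86 (-1.11 to -0.58). At an unadjusted p under 0.05 there were 3 lower and 1 higher, where all genes had 3.36% lower and 2.04% higher. The higher one was the only positive member. Nppa, the atrial natriuretic peptide, also chosen after its values were seen, was at 66.2, 51.2, 64.8 and 48.5 CPM in wildtype and 38.8, 16.97, 32.97 and 48.4 CPM in the Gata5-null libraries (log2 fold change -0.75, SE 0.32, adjusted p = 0.872). Sln, which regulates the calcium pump of atrial muscle and was chosen in the same way, had a log2 fold change of -1.84 (SE 1.02), with overlapping groups. The summed atrial level, 2545 to 3061 CPM in wildtype and 2027 to 2303 CPM in the Gata5-null libraries, did not overlap, but most of it was Pam, an enzyme of peptide amidation that many tissues express (log2 fold change -0.23, SE 0.10, adjusted p = 0.87). The atrial score itself overlapped between the groups, from 4.31 to 5.92 in wildtype and from 3.78 to 4.51 in Gata5-null.

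**Figure D4:**
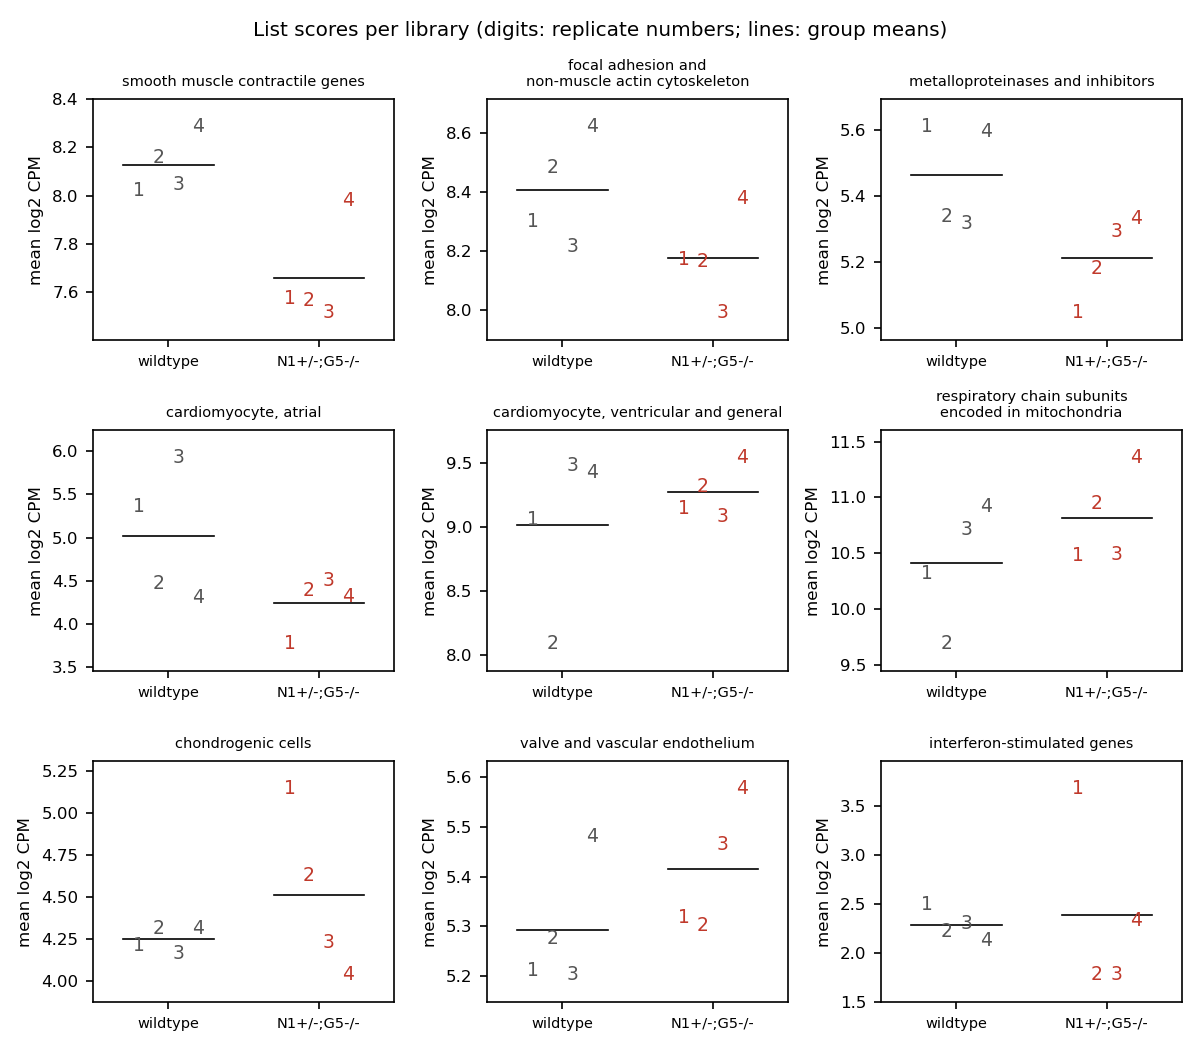
Score (mean log2 CPM of the members) of 9 gene lists in each wildtype (grey) and Gata5-null (red) library, drawn as the replicate number, with a line at each group mean. Only the smooth muscle scores separate, by the distance between Gata5-null replicate 4 at 7.98 and wildtype replicate 1 at 8.02. The 4 called smooth muscle genes are part of that score.

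Lists of cell state had medians of 0.09 (-0.03 to 0.20) for the cell cycle, 0.01 (-0.21 to 0.02) for p53 targets, 0.14 (0.06 to 0.22, 0.06 without wildtype replicate 2 and 0.22 without wildtype replicate 3) for hypoxia, -0.11 (-0.21 to -0.01, -0.21 without Gata5-null replicate 4 and -0.01 without Gata5-null replicate 3) for oxidative stress, -0.04 (-0.13 to 0.01) for the unfolded protein response and 0.12 (0.01 to 0.20, 0.01 without wildtype replicate 3 and 0.20 without Gata5-null replicate 2) for immediate early genes. Fos, an immediate early transcription factor, was at 3.28, 3.99, 4.96 and 1.15 CPM in wildtype and 8.38, 6.22, 11.01 and 9.17 CPM in the Gata5-null libraries (log2 fold change 1.38, SE 0.49, adjusted p = 0.839), without overlap. The clock output gene Dbp had a log2 fold change of 0.84. Medians of the other lists were -0.01 (-0.05 to 0.09) for semaphorins and ephrins, 0.03 (-0.05 to 0.18) for cell junctions, -0.06 (-0.21 to 0.05) for heat shock proteins, -0.0027 (-0.11 to 0.04) for the circadian clock, -0.03 (-0.16 to 0.05) for glucocorticoid-induced genes, -0.07 (-0.09 to 0.13) for cholesterol, 0.05 (-0.04 to 0.10) for the proteasome, 0.02 (-0.02 to 0.08) for lysosomes and -0.09 (-0.17 to 0.04) for homeobox genes. Markers of epicardium and mesothelium had 3 of 14 positive and a median of -0.29 (-0.58 to -0.05, -0.58 without Gata5-null replicate 4 and -0.05 without Gata5-null replicate 3), lymphatic endothelium -0.18 (-0.25 to 0.03, 0.03 without wildtype replicate 1), Schwann cells -0.0041 (-0.29 to 0.11), adipocytes -0.23 (-0.35 to 0.02, -0.35 without wildtype replicate 3 and 0.02 without wildtype replicate 2), mast cells -0.35 (-0.60 to -0.14, -0.60 without Gata5-null replicate 4 and -0.14 without wildtype replicate 2), erythroid cells 0.34 (0.14 to 0.53, 0.14 without wildtype replicate 1 and 0.53 without wildtype replicate 4), neurons 0.28 (-0.01 to 0.35, -0.01 without wildtype replicate 4) and skeletal muscle 0.25 (-0.85 to 0.36, -0.85 without Gata5-null replicate 2). The B and plasma cell list had only 4 of 14 members tested, the neutrophil and monocyte list 1 of 17, and the T and NK cell list 9 of 19.

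The authors' deposited table, whose fold changes match a refit of this comparison, marks 33 of its 13959 genes (0.236%), 22 lower (0.158%) and 11 higher (0.0788%). By its name, that table marks genes at an adjusted p under 0.1 with a log2 fold change beyond 0.58. The threshold for calls here was an adjusted p under 0.05. All 33 had the same sign in the edgeR fit, which rests on the same counts and is not an independent check. Groups did not overlap for 27 of the 33, against 2.93% of all genes tested. These genes had been marked by their p in the same libraries. At 0.05, 5 of the 33 were called by edgeR, and 8 had an edgeR adjusted p under 0.1. The smooth muscle list holds 6 of the 33. Genes marked lower in the authors' deposited table and not yet described are the platelet and vascular integrin chain Itgb3, at 133, 127, 98.8 and 149.9 CPM in wildtype and 80.6, 68.4, 44.4 and 103 CPM in the Gata5-null libraries, the actin-associated Filip1l, at 252, 281, 236 and 307 CPM in wildtype and 146, 158, 127 and 246 CPM in the Gata5-null libraries, and the secreted Pi15, at 307, 384, 335 and 378 CPM in wildtype and 214, 164, 257 and 286 CPM in the Gata5-null libraries. Their edgeR values were -0.78 (SE 0.19), -0.67 (SE 0.17) and -0.61 (SE 0.15) on the log2 scale. Crispld1, a secreted protein marked higher in the authors' deposited table, was at 39.04, 53.9, 35.8 and 41.3 CPM in wildtype and 98.8, 87.4, 89.2 and 45.1 CPM in the Gata5-null libraries, where Gata5-null replicate 4 alone lay inside the wildtype range (log2 fold change 0.91, SE 0.21, adjusted p = 0.282). Some marked genes were near the floor: Upb1 was at 1.77, 4.36, 1.76 and 1.35 CPM in wildtype and 0, 0, 0 and 0.0826 CPM in the Gata5-null libraries, Usp50 at 1.72, 6.66, 1.24 and 0 CPM in wildtype and 0.0468, 0, 0 and 0 CPM in the Gata5-null libraries, Rslcan18 at 0.676, 4.08, 1.14 and 0.501 CPM in wildtype and 0, 0, 0 and 0 CPM in the Gata5-null libraries and Car15 at 0, 0, 0 and 0.0501 CPM in wildtype and 4.26, 1.10, 0 and 2.48 CPM in the Gata5-null libraries. For 3 of the 33 all 4 Gata5-null libraries were at 0, and 27 had counts in all 8 libraries. The zinc finger gene Zfp93 was at 16.7, 18.4, 10.03 and 13.3 CPM in wildtype and 6.09, 5.50, 6.47 and 6.65 CPM in the Gata5-null libraries, and its counts, like those of Rslcan18, are uncertain because of close relatives in the genome.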

How the data were processed

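RNA was measured by poly-A RNA sequencing of pools of 3 valves, and each pool counts as 1 biological replicate per the labels; whether pools shared litters is not stated. The deposited counts are whole numbers of reads per gene, and per the submitters' processing notes Trim Galore, STAR 2.7.10b, DESeq2 1.34.0 and the GRCm39 build were used. For the counting tool, annotation release and strand setting, the answer is not given in the sources used here, so overlapping and antisense genes cannot be separated. The authors' deposited table of fold changes gives, per the file headers, each gene's normalized signal averaged over libraries, log2 fold changes, p-values and 2 score columns (the standard error and test statistic). Gene symbols came from that table for 13959 genes and from a gene name table for 6077, and 584 had none.

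Counts were scaled by TMM and tested with edgeR 4.0.16 (R 4.3.3) by a robust quasi-likelihood fit over all 12 libraries, after the default filter removed 1274 genes. Benjamini-Hochberg adjustment covered the 19346 genes left, with a threshold of 0.05. Per-library CPM has no prior count and list scores use a prior count of 2. The biological coefficient of variation was 0.680. Exact permutation tests were two-sided. Floors cover counting error only. Alternatives were DESeq2 1.42.0, limma-voom (limma 3.58.1), other scalings, filters and library sets, and a replicate block. The count test was run on simulated counts with known fold changes, drawn with the spread estimated from these libraries. Fold changes were set only in genes of higher abundance, so the simulation does not cover changes at low abundance or outlying libraries. Named genes were Notch1 and Gata5, the called genes, the 12 higher and 12 lower genes with the smallest p among those averaging 1 or more in log2 CPM without overlap, up to 3 members with the smallest p per list, and genes with a settled symbol marked in the deposited table; any other gene is stated to be chosen after its values were seen. Members and lists were chosen with earlier results of these data known. Values of 3 named genes are not reported here.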

Additional observations from a re-analysis of the deposited data

Results flagged for a closer look

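Among 564 sets of 4 libraries, each the values of a named gene, a list score or a library measure in 1 group, 41 had a library set apart from the other 3. The mark was a gap to the nearest library over the whole range above Dixon's 95% critical value for 4. Chance alone marks about 1 in 20 such sets.

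In these sets 1 library was high. Fblim1 was at 264 CPM in Gata5-null replicate 4, with the other 3 at 205 to 213 CPM. Upb1 was at 4.36 CPM in wildtype replicate 2, with the other 3 at 1.35 to 1.77 CPM. Fhl1 was at 203 CPM in wildtype replicate 4, with the other 3 at 175 to 178 CPM. Sema3e was at 10.7 CPM in Gata5-null replicate 3, with the other 3 at 2.66 to 3.68 CPM. Dnajb4 was at 167 CPM in wildtype replicate 4, with the other 3 at 111 to 116 CPM. Tgfbr1 was at 146 CPM in wildtype replicate 2, with the other 3 at 121 to 124 CPM. Cat was at 36.3 CPM in Gata5-null replicate 4, with the other 3 at 18.5 to 20.7 CPM. Junb was at 17.9 CPM in Gata5-null replicate 2, with the other 3 at 13.01 to 13.4 CPM. Hapln1 was at 50.5 CPM in Gata5-null replicate 3, with the other 3 at 22.2 to 26.6 CPM. Cd68 was at 23.7 CPM in Gata5-null replicate 3, with the other 3 at 1.17 to 3.63 CPM. Klf2 was at 41.1 CPM in wildtype replicate 2, with the other 3 at 19.3 to 22.3 CPM. Klf2 was at 67.6 CPM in Gata5-null replicate 3, with the other 3 at 26.0 to 31.8 CPM. Cidec was at 0.453 CPM in Gata5-null replicate 2, with the other 3 at 0 to 0.0413 CPM. Axl was at 272 CPM in Gata5-null replicate 1, with the other 3 at 230.3 to 236 CPM. Myh7 was at 331 CPM in wildtype replicate 4, with the other 3 at 119 to 129 CPM. Myh7 was at 689 CPM in Gata5-null replicate 1, with the other 3 at 156 to 239.5 CPM. Hand2 was at 49.4 CPM in Gata5-null replicate 3, with the other 3 at 36.7 to 38.2 CPM. Myocd was at 113 CPM in Gata5-null replicate 4, with the other 3 at 83.4 to 88.1 CPM. Aldh1a2 was at 12.3 CPM in wildtype replicate 4, with the other 3 at 7.95 to 8.31 CPM.

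In these sets 1 library was low. Tgfb2 was at 46.5 CPM in Gata5-null replicate 3, with the other 3 at 75.6 to 80.6 CPM. Igfbp4 was at 273 CPM in Gata5-null replicate 3, with the other 3 at 357 to 359.9 CPM. Lfng was at 4.01 CPM in Gata5-null replicate 2, with the other 3 at 12.8 to 13.5 CPM. Aplnr was at 20.6 CPM in wildtype replicate 2, with the other 3 at 38.5 to 41.0 CPM. Rbp4 was at 0 CPM in Gata5-null replicate 3, with the other 3 at 10.1 to 10.8 CPM. Serpina3n was at 1.71 CPM in wildtype replicate 3, with the other 3 at 4.41 to 4.81 CPM.

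In these sets the other 3 libraries had no counts, and the values of Upb1, Usp50 and Car15 are below the floor of 3 counts. Upb1 was at 0.0826 CPM in Gata5-null replicate 4, with the other 3 at 0. Usp50 was at 0.0468 CPM in Gata5-null replicate 1, with the other 3 at 0. Car15 was at 0.0501 CPM in wildtype replicate 4, with the other 3 at 0. Adipoq was at 0.578 CPM in Gata5-null replicate 4, with the other 3 at 0. Mybpc1 was at 0.501 CPM in wildtype replicate 4, with the other 3 at 0. Cpa3 was at 1.40 CPM in Gata5-null replicate 4, with the other 3 at 0. Cd79b was at 0.991 CPM in Gata5-null replicate 4, with the other 3 at 0.

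List scores, in mean log2 CPM, were marked as follows. Smooth muscle contractile genes had a score of 7.98 in Gata5-null replicate 4, with the other 3 at 7.52 to 7.57. Wnt signalling had a score of 3.81 in wildtype replicate 3, with the other 3 at 4.29 to 4.38. Semaphorins, plexins, ephrins and Eph receptors had a score of 4.45 in Gata5-null replicate 3, with the other 3 at 5.07 to 5.15. Collagen-modifying and crosslinking enzymes had a score of 6.53 in wildtype replicate 2, with the other 3 at 6.25 to 6.28. Mineralization and osteogenic genes had a score of 4.79 in wildtype replicate 4, with the other 3 at 4.54 to 4.58. Mineralization and osteogenic genes had a score of 4.51 in Gata5-null replicate 2, with the other 3 at 4.73 to 4.78. Oxidative stress (Nrf2) genes had a score of 3.49 in wildtype replicate 2, with the other 3 at 3.90 to 3.96. Schwann cells and nerve had a score of 0.97 in wildtype replicate 4, with the other 3 at 1.77 to 1.93. B and plasma cells had a score of 0.13 in wildtype replicate 3, with the other 3 at 1.20 to 1.337.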

How the results depend on the processing

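Against 5 genes called, DESeq2 called 49 and a fit of only the 8 libraries compared called 0 (edgeR, 504 at an unadjusted p under 0.05). The fit without wildtype replicate 2 and Gata5-null replicate 3 together called 2, of which only Itih4 was among the 5. An adjusted p under 0.1 with a log2 fold change beyond 0.58, the thresholds of the authors' deposited table, called 8. Leaving out 1 library gave 2 (without wildtype replicate 2) to 21 calls (without Gata5-null replicate 4), with 3 without Gata5-null replicate 1. Other scalings, filters, limma-voom and replicates 1 to 3 only gave 4 to 7. The causes were not tested. Of 214 named genes 204 kept their direction under every alternative, and of 66 list medians 25 kept their sign. Most named genes were chosen by a small p in these same libraries, so the count for genes is not an independent check.

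Without wildtype replicate 2 and Gata5-null replicate 3 together, log2 fold changes reversed for Gadd45a (-0.16), Plin1 (0.12), Ndufa2 (-0.0894), Ddit3 (-0.0494), Cdkn1a (0.0126), Psmc3 (-0.0559), Gli1 (-0.0846) and Hdc (0.43). With limma-voom Cd5 reversed to -0.0406. Leaving out 1 library reversed 3 genes, which ranged from -0.0838 to 1.97 (Cd68), -0.0475 to 0.49 (Gli1) and -2.33 to 0.0184 (Hdc).

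With a replicate block edgeR called 7 genes, all 5 among them, and 4 with the block and only the 8 libraries compared. No label says that a replicate number is shared by pools across genotypes. Deviations of same-numbered libraries correlated at 0.020, -0.022, -0.017 and 0.027, and replicates 1 and 4 matched best with their own number. Whether same-numbered pools shared a litter or a batch cannot be told from these values.

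Depth of 13866604 to 25059653 counts limits genes of low abundance, where the median standard error was 1.89.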
